A study of Mus musculus with 25 samples.

Results

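The genes examined here encode voltage-gated and leak ion channels. They are the protein-coding genes of GENCODE mouse release M21 (GRCm38) whose symbols start with Kcn (without Kcnj, the inward rectifiers), Cacn, Hcn and a digit, or Scn with a digit and the letter a or b. All 123 such genes had transcripts in the deposited table, among 35969 genes and 21898 protein-coding genes with transcripts. Myocardial mRNA came from 25 male mice in 5 groups of 5. The groups were WT CNTL (wild-type littermates on the control diet), GPx4+/- CNTL (heterozygous for Gpx4, the gene of glutathione peroxidase 4, on the same diet), WT HFHS and GPx4+/- HFHS (the same genotypes on a high fat, high sucrose diet), and WT HFHS + Carnosine (wild type on HFHS with 80 mM carnosine, a dipeptide of beta-alanine and histidine, in the drinking water). The mice were 8 to 10 weeks old when the diet began, the diet lasted 16 weeks, and carnosine was given after the first 7 weeks. By the extraction protocol given with each sample the RNA came from the left ventricle, while the sample titles name heart tissue. Before tissue collection the animals were fasted and given dextrose or saline, and which mouse received which is not given in the sources used here.

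Voltage-gated channels shape the action potential of a heart muscle cell. Na+ channels start it, L-type Ca2+ channels hold the plateau and trigger contraction, and K+ channels end it, while two-pore K+ channels carry a leak current and HCN channels a pacemaker current. In the mouse ventricle a large transient outward K+ current, carried by Kv4 pore proteins together with the auxiliary protein KChIP2, makes repolarization fast. Auxiliary subunits (Na+ channel beta, Ca2+ channel beta and alpha2delta, KChIP and KCNE proteins) set how many channels reach the membrane and how they open and close.

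Levels are given as scaled TPM, which is TPM (a transcript's share of a library, corrected for its length) added up over the transcripts of a gene and divided by a library's scaling factor. Because of the length correction, levels can be compared between genes. It keeps no read depth, so the depth behind each value is unknown and no counting error is given. Of the 123 genes, 39 (31.7%) reached a mean of 1 scaled TPM across all 25 mice and were tested, against 11984 genes tested in all. The other 84 were below that level and 4 of them (Kcnk15, Kcnk16, Kcnv1 and Kcns2, outside the rule for named genes) were listed at 0 in all 25 libraries. Just above the limit lay Cacng6 at 1.21, Kcnk2 at 1.23 and Cacng7 at 1.25, and just below it Kcnk1 at 0.964, Kcnt2 at 0.898 and Cacna2d3 at 0.884 (mean scaled TPM).

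Genotype labels were checked with Gpx4, whose scaled TPM was 251 to 357 in GPx4+/- CNTL and 324 to 383 in GPx4+/- HFHS, below 591 to 709 in WT CNTL, 601 to 778 in WT HFHS and 666 to 734 in WT HFHS + Carnosine. Between 31.3% and 48.7% of a library's TPM was mitochondrial. In 5 mice the summed scaled TPM of 10 atrial muscle markers, such as Myl7 and Sln, stood apart from the other 20, where it was 66.5 to 325. It was 4790 in WT CNTL replicate 3, 7627 and 1564 in GPx4+/- CNTL replicates 1 and 2, 2840 in GPx4+/- HFHS replicate 4 and 664 in WT HFHS + Carnosine replicate 2. GPx4+/- CNTL replicate 2 also stood apart in 10 hepatocyte markers, such as Alb, with a sum of 1206 scaled TPM against at most 87.4 in any other mouse. The fits of the channel genes and of their regulators were also computed without these 5 mice.

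RefSeq promoters (build GRCm38.p6) are shown for genes that passed the test below, as the 250 bases before the RefSeq start. Of the 3 such genes all had an entry, and 2 are printed, because the Scn4b window overlaps its GENCODE transcript. Capitals mark matches to the letters CACCC on either strand, letters that were chosen after results were known. The Kcnip2 stretch (chr19:45816064-45816313, minus strand, 66.8% G and C) held 4 matches and the Hcn4 stretch (chr9:58822699-58822948, plus strand, 71.2% G and C) held 0. The Hcn4 stretch ends at 58822948, upstream of the GENCODE start of the gene at 58823412.
Kcnip2: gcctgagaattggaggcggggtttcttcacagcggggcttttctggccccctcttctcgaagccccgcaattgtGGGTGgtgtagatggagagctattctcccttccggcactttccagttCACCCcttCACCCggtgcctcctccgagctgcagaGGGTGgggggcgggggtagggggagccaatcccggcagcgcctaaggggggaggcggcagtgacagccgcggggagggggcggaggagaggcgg
Hcn4: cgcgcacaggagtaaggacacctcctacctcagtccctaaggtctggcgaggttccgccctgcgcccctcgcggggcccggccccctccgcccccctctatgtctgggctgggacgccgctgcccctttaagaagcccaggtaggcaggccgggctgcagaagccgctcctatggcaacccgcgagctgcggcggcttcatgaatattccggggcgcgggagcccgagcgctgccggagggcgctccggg
At least 1 match was present in 52.0% of the 32851 promoters of the table over the same length. Other letters searched on both strands were found in neither stretch. The E-box CACGTG was present in 6.02% of all promoters. The GATA-like letters AGATAA were present in 9.99% of them. The TATA-box letters TATAAA were present in 12.4%.

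The channel repertoire of these hearts was dominated by few genes. The 5 highest, among them Kcnk3, Kcnip2, Cacna1c and Kcng2, made up 52.7% of the summed scaled TPM of all 123. Kcnk3, which encodes the two-pore leak channel TASK-1, had the highest mean at 97.3 scaled TPM. Kcnip2, which encodes KChIP2, had 61.6, Cacna1c, the L-type Ca2+ channel pore, 55.9, and Kcng2, a silent Kv6 subunit that assembles with other Kv proteins, 53.4.

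**Figure D1:**
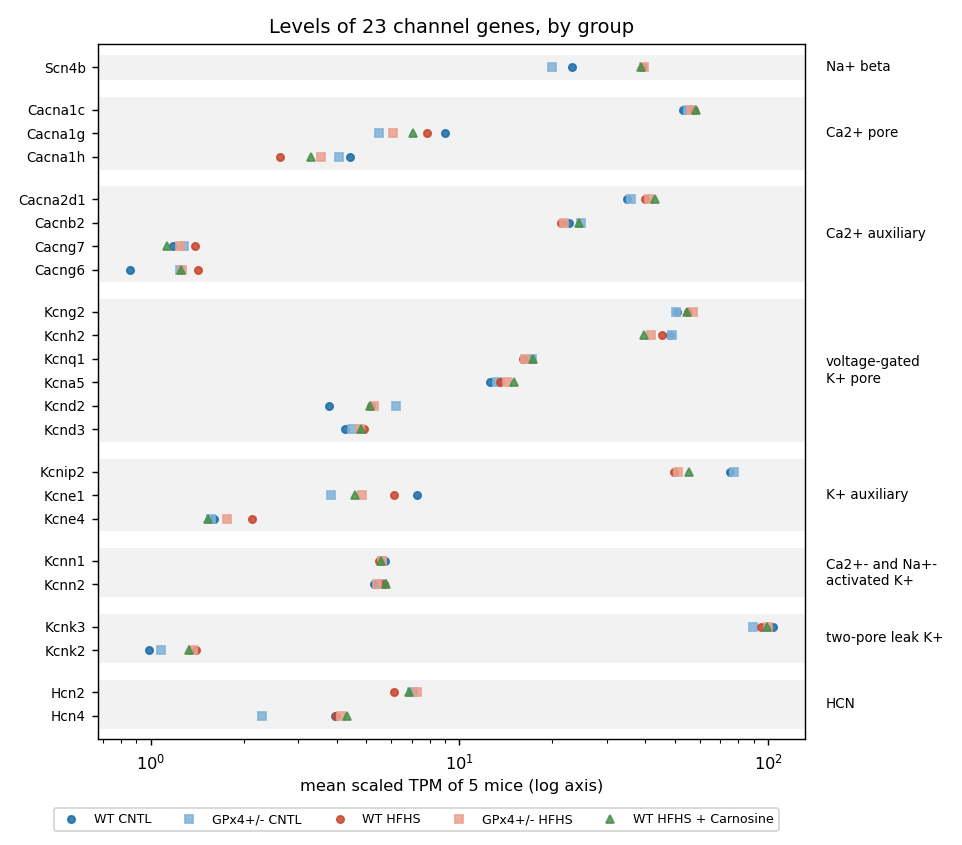
Mean scaled TPM of the 5 mice of each group (log axis) for 23 of the 39 channel genes tested, those described in the text by the rule for named genes, arranged by role. Levels run from about 1 for Cacng6 (1.21 over all mice) to Kcnk3 (97.3), and most groups lie close together within a gene.

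Among voltage-gated K+ channel pore genes, 11 of 40 were tested. Kcnh2, the pore of the rapid delayed rectifier, had 44.7 scaled TPM and Kcnq1, the pore of the slow delayed rectifier, 16.7. The delayed rectifier pore Kcna5 had 13.7. The Kv4 genes of the transient outward current were lower, with 5.13 for Kcnd2 and 4.63 for Kcnd3. The level of their partner Kcnip2 was thus above that of either pore gene in every mouse. Kcne1, the partner of Kcnq1, had a mean of 5.34 and ranged from 0.539 in GPx4+/- CNTL replicate 3 to 17.2 in WT HFHS replicate 4.

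Of 12 Ca2+- and Na+-activated K+ channel genes 2 were tested, Kcnn1 at 5.62 and Kcnn2 at 5.57, both small conductance channels. Kcnma1, the large conductance channel, stayed below the limit at 0.391. Of 14 two-pore genes 3 were tested. Of the 4 pacemaker genes Hcn2 (6.88) and Hcn4 (3.74) were tested.

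The Na+ channel genes gave 3 tested pores of 10 and 2 beta subunits of 4. The pore gene Scn4a, best known from skeletal muscle, had 20.4 scaled TPM. Of the beta subunits Scn4b was the highest, at 32.1. Of the 10 Ca2+ channel pores 5 were tested, among them Cacna1s, the pore of skeletal muscle, at 8.27 and the T-type pores Cacna1g at 7.09 and Cacna1h at 3.60. Scn4a and Cacna1s fall outside the rule for named genes and are described after their values were seen. The 10 skeletal muscle markers summed to 3.10 to 10.6 scaled TPM per mouse, and 3 of them had a mean of at least 1. Those 3, whose values are not given here, do not include the fast skeletal myosin genes Myh1, Myh2 and Myh4. The myosin genes reached at most 0.0997, 0.0296 and 0.0362 in any mouse. The part of skeletal muscle cells in the levels of Scn4a and Cacna1s was not tested. For Scn4a 47.1% of the TPM lay in a transcript annotated as processed and not as protein-coding, and for Cacna1s 42.1% did. A further 20.2% of the Cacna1s TPM lay in a retained intron transcript, and its highest protein-coding transcript held 22.4%. Among the auxiliary genes of the L-type channel, Cacnb2, the beta subunit, had 23.0, and the alpha2delta gene Cacna2d1 was higher, with values given below.

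The first comparison asked what the HFHS diet changed. Over both genotypes 2 of the 39 channel genes passed the test (limma, Benjamini-Hochberg adjusted p under 0.05), where 8.33% of all genes tested passed (4.68% higher and 3.65% lower). Scn4b rose 1.80-fold (log2 fold change 0.85 with a standard error of 0.097, limma adjusted p = 4.08e-05) and Kcnip2 fell to 0.661-fold (log2 fold change -0.60 with a standard error of 0.080, limma adjusted p = 0.000173). Fold changes are on the scale of scaled TPM + 0.5. In bulk tissue fewer cells of a type and less RNA per cell cannot be told apart. Both genes passed in each of the 9 other settings for this comparison and with each mouse left out in turn, including the fit without the 5 mice high in atrial markers.

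Scn4b (ENSMUSG00000046480.6, chromosome 9 from 45138395 to 45154152, GRCm38, 1 transcript) encodes the Na+ channel beta4 subunit, which modulates the opening of the cardiac pore. In WT CNTL the 5 mice had 26.3, 19.9, 23.6, 20.0 and 25.9 scaled TPM. In GPx4+/- CNTL they had 19.0, 23.7, 18.0, 20.0 and 19.0. All 10 HFHS mice without carnosine lay above every CNTL mouse. WT HFHS mice had 39.5, 38.2, 55.6, 30.4 and 32.6, and GPx4+/- HFHS mice 48.0, 41.4, 37.6, 31.2 and 40.2. The group means were 23.1 ± 3.09 (SD, n = 5) and 20.0 ± 2.22 (SD, n = 5) on CNTL, and 39.3 ± 9.89 (SD, n = 5) and 39.7 ± 6.10 (SD, n = 5) on HFHS, WT first.

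Kcnip2 (ENSMUSG00000025221.15, chromosome 19 from 45791839 to 45816061, GRCm38, promoter above) had 76.5, 79.2, 57.4, 77.5 and 84.3 scaled TPM in WT CNTL. GPx4+/- CNTL mice had 70.3, 83.2, 74.3, 84.2 and 74.4. WT HFHS mice had 52.7, 59.5, 49.6, 36.4 and 49.7. GPx4+/- HFHS mice had 60.1, 45.2, 50.0, 51.1 and 48.5. The diets did not overlap in GPx4+/-, and in WT they overlapped through WT CNTL replicate 3, a mouse high in atrial markers, at 57.4. The means were 75.0 ± 10.3 (SD, n = 5) against 49.6 ± 8.38 (SD, n = 5) in WT, and 77.3 ± 6.11 (SD, n = 5) against 51.0 ± 5.56 (SD, n = 5) in GPx4+/-.

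**Figure D2:**
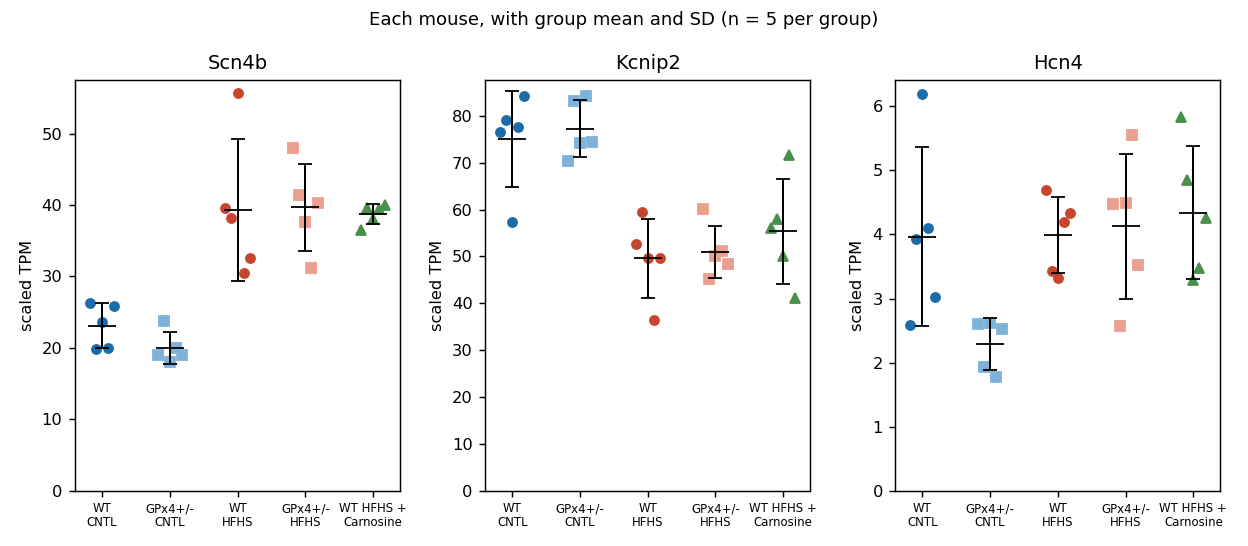
Scaled TPM of Scn4b, Kcnip2 and Hcn4 in each mouse (points) by group, with the group mean and SD (bars, n = 5). CNTL mice reach at most 26.3 for Scn4b while HFHS mice start at 30.4, and Kcnip2 shows the opposite order, with overlap from 1 WT CNTL mouse at 57.4 and 1 WT HFHS + Carnosine mouse at 71.6.

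Kcnip2 has 10 annotated transcripts, and the means of the 3 most abundant were lower on HFHS than on CNTL in both genotypes, given here without a test. ENSMUST00000162528.8, with 42.2% of the Kcnip2 TPM, went from 32.7 ± 3.55 (SD, n = 5) to 20.3 ± 5.39 (SD, n = 5) between WT CNTL and WT HFHS, and from 34.1 ± 3.13 (SD, n = 5) to 20.4 ± 3.06 (SD, n = 5) between the GPx4+/- groups. ENSMUST00000079431.9, with 39.1%, had 28.6 ± 5.01 (SD, n = 5) and 20.5 ± 2.66 (SD, n = 5) in the WT groups. ENSMUST00000161886.8 had 10.4 ± 3.28 (SD, n = 5) and 6.71 ± 1.37 (SD, n = 5) in the same groups.

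Seen by genotype, 2 channel genes passed in WT, where 1.18% of all genes did (0.659% higher and 0.526% lower). In GPx4+/- 3 passed, where 3.34% of all genes did (2.18% higher and 1.16% lower). Scn4b was 1.66-fold in WT (log2 fold change 0.73, standard error 0.138, limma adjusted p = 0.0141) and 1.95-fold in GPx4+/- (0.97, standard error 0.138, limma adjusted p = 0.00135). Kcnip2 had a log2 fold change of -0.60 in both, with limma adjusted p of 0.0151 in WT and 0.00665 in GPx4+/-. In WT both calls were lost with the 2 WT groups fitted alone, with no filter on low values and without WT CNTL replicate 2, and the Scn4b call was also lost without WT CNTL replicate 4. The adjusted p was then just above the threshold, at most 0.0640.

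The third gene in GPx4+/- was Hcn4 (ENSMUSG00000032338.9, chromosome 9 from 58823412 to 58863175, 1 transcript), the main pacemaker channel of the sinus node. GPx4+/- CNTL mice had 2.60, 1.93, 2.62, 1.78 and 2.52 scaled TPM and GPx4+/- HFHS mice 4.47, 2.57, 4.50, 5.55 and 3.53. The groups overlapped in 1 HFHS mouse. WT CNTL mice had 2.58, 3.93, 6.20, 4.09 and 3.03, and WT HFHS mice 4.70, 3.43, 3.32, 4.19 and 4.33, so the diets overlapped in WT. The 6.20 was that of WT CNTL replicate 3, a mouse high in atrial markers, and 3 of the 5 WT HFHS mice lay above the other 4 CNTL mice. The log2 fold change in GPx4+/- was 0.71 (standard error 0.189, limma adjusted p = 0.0465). The call was lost in 5 of the 9 other settings that gave it a value, among them the fit without the 5 mice high in atrial markers (log2 fold change 0.59, adjusted p = 0.108). Without GPx4+/- CNTL replicate 2, the mouse high in hepatocyte markers, the log2 fold change was 0.66 (limma adjusted p = 0.0757). The call was lost in 16 of 20 fits with 1 mouse left out and held only without WT CNTL replicate 1, 3 or 5 or GPx4+/- HFHS replicate 2, with an adjusted p of 0.016 to 0.104 over the 20 fits.

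Levels of conduction system markers stood beside Hcn4 as follows. Their sum over 10 genes was 27.7 to 68.0 in GPx4+/- CNTL and 40.8 to 74.0 in GPx4+/- HFHS. The 68.0 was that of GPx4+/- CNTL replicate 1, a mouse high in atrial markers, and the other 4 CNTL mice, at most at 35.0, lay below every HFHS mouse. In WT the sum was 27.3 to 92.1 on CNTL, with 92.1 in replicate 3 and at most 40.2 in the other 4 mice, and 38.2 to 67.8 on HFHS. Most of the sum came from Igfbp5, which fibroblasts also express, with 16.6 to 44.0 in GPx4+/- CNTL and 30.3 to 49.0 in GPx4+/- HFHS. Tbx3, a defining factor of conduction tissue, had 2.68 to 4.65 in GPx4+/- CNTL and 2.56 to 3.97 in GPx4+/- HFHS, and Isl1 was at 0 in both groups. Of the other 4 markers with a mean of at least 1, the medians in GPx4+/- CNTL and GPx4+/- HFHS were 2.33 and 2.40 for Cntn2, 0.299 and 0.356 for Cpne5, 2.85 and 3.18 for Gja5, and 1.13 and 1.17 for Tbx18. Their part in the Hcn4 result was not tested. Heart muscle markers were 10 genes, among them Myh6, Tnnt2, Ttn and Myl2, and not all are particular to the ventricle. They summed to 42949 to 49655 in WT CNTL and 38313 to 45616 in WT HFHS, and to 41960 to 49916 in GPx4+/- CNTL and 38839 to 43216 in GPx4+/- HFHS. Fibroblast markers summed to 858 to 1750 in WT CNTL and 1094 to 1897 in WT HFHS, and to 821 to 1491 in GPx4+/- CNTL and 1007 to 1842 in GPx4+/- HFHS. In WT the CNTL sum of 1750 was that of replicate 3, a mouse high in atrial markers, and the other 4 mice reached at most 973. Neuron and Schwann cell markers summed to 14.2 to 27.5 in WT CNTL and 19.3 to 27.1 in WT HFHS, with the other 4 WT CNTL mice at most at 16.5, and to 11.9 to 22.0 in GPx4+/- CNTL and 16.8 to 29.8 in GPx4+/- HFHS. The part of these cell types in the changes of Scn4b and Kcnip2 was not tested.

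The remaining 37 genes did not pass over both genotypes. Of the 39, 28 had a log2 fold change above 0 (71.8%), against 49.1% of all genes tested, and the median was 0.08 against -0.0024. With TPM as deposited, which moved the median of all genes to -0.05, it was 24 of 39 (61.5%). At an unadjusted p under 0.05 there were 10 channel genes (25.6%), against 24.5% of all genes, which is near the background. Cacna2d1 had a log2 difference of 0.20 (standard error 0.064, limma adjusted p = 0.0568). Its WT CNTL mice lay between 33.1 and 36.2 and its WT HFHS mice between 37.5 and 42.6, while the GPx4+/- groups overlapped. Kcnk2, a stretch-sensitive leak channel, had a log2 difference of 0.31 (limma adjusted p = 0.0751) and Kcng2 of 0.15 (limma adjusted p = 0.0813). These are not the genes nearest to the threshold. The smallest limma adjusted p was 0.0541 among Ca2+ auxiliary genes and 0.0631 among voltage-gated K+ pores.

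The pores that work with KChIP2 gave no call. Kcnd2 had log2 differences of 0.40 in WT (95% interval -0.04 to 0.84) and -0.12 in GPx4+/- (-0.56 to 0.32), and Kcnd3 of 0.17 and 0.08. For Kcnd2 the GPx4+/- value minus the WT value ran from -0.66 to -0.28 with 1 mouse left out, so it varied with single mice. For the delayed rectifier genes the log2 differences over both genotypes were -0.16 for Kcnh2, -0.07 for Kcnq1 and 0.10 for Kcna5. Cacna1c had 0.08 and Cacnb2 -0.13. A value that misses the threshold does not show that a gene was the same on both diets.

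**Figure D3:**
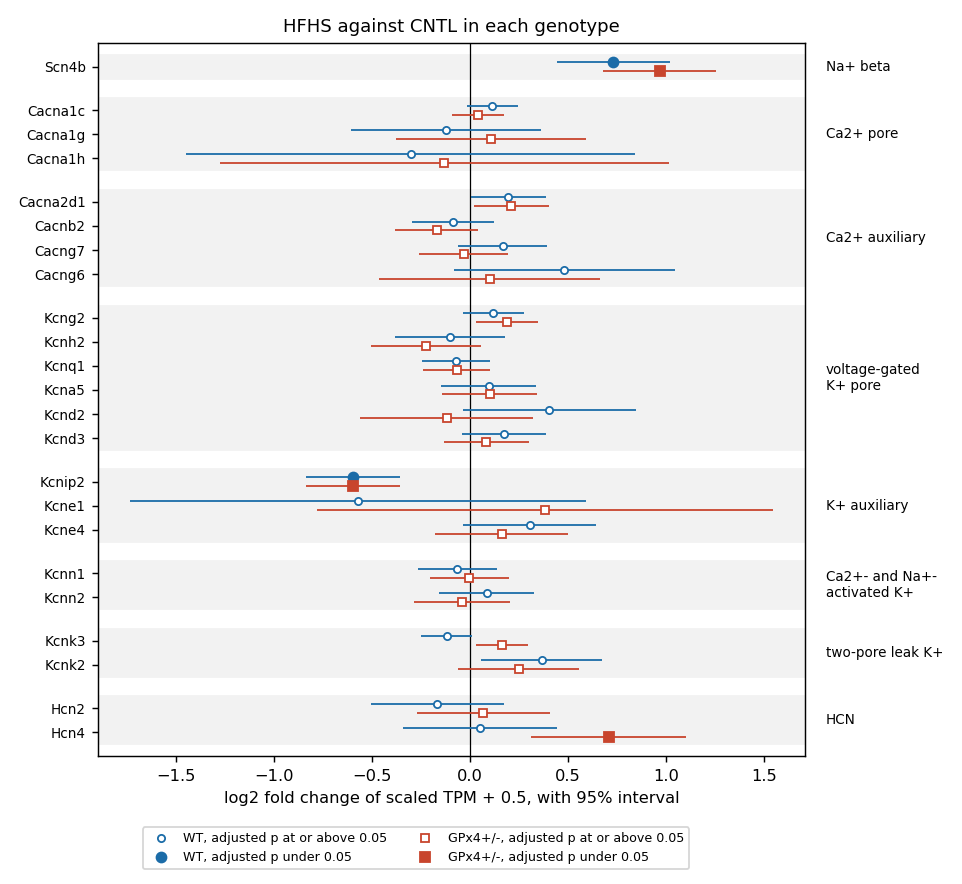
Log2 fold change of HFHS against CNTL with its 95% interval for the same 23 channel genes, in WT (circles) and GPx4+/- (squares). Filled symbols mark an adjusted p under 0.05 from limma, which Scn4b (0.73 and 0.97) and Kcnip2 (-0.60 and -0.60) had in both genotypes and Hcn4 (0.71) in GPx4+/-.

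Genes that regulate or anchor these channels were followed as a list of 30, of which 26 were tested. Over both genotypes 7 passed, 3 higher and 4 lower, beside 8.33% of all genes. Without the 5 mice high in atrial markers 6 passed, and with TPM as deposited 4 passed, 0 higher and 4 lower. The share of all genes that passed in these and the other alternative fits of the list is not given here. Calm3, a gene of calmodulin, rose (log2 fold change 0.19, limma adjusted p = 0.00038). Those that fell were Fgf13 (-0.26, limma adjusted p = 0.0420), which modulates Na+ channel inactivation, Ank2 (-0.18, limma adjusted p = 0.00777), the gene of ankyrin-B, Gpd1l (-0.15, limma adjusted p = 0.0220), which affects Na+ channel trafficking, and Irx3 (-0.35, limma adjusted p = 0.0464), a transcription factor of the fast conduction system. With 1 mouse left out the Fgf13 call was lost in 16 of 20 fits and the Irx3 call in 14 of 20. Of the 9 other settings Fgf13 lost its call in 2 and Irx3 in 4, the replicate block and no filter on low values among them. Calm3, Ank2 and Gpd1l passed in all 20 fits with 1 mouse left out. In GPx4+/- 2 of them passed, Calm3 among them, beside 3.34% of all genes. Without the 5 mice high in atrial markers only Fgf13 passed there, and with only the groups compared 0 did. In WT 0 passed by limma, where 10 of 26 (38.5%) had an unadjusted p under 0.05, beside 16.5% of all genes.

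The second comparison was of genotype. Over both diets 0 of the 39 channel genes passed in limma, beside 0.0584% of all genes (0.025% higher and 0.0334% lower), and 2 had an unadjusted p under 0.05 (5.13%, beside 3.90% of all genes). The smallest p belonged to Cacna1g, a T-type Ca2+ channel pore, with a log2 difference of -0.47 (standard error 0.164, limma adjusted p = 1.00). Its 2 most abundant transcripts, with 29.2% and 20.4% of its TPM, are annotated as processed, and the highest protein-coding one held 14.2%. Its scaled TPM was 4.86 to 15.5 in WT CNTL against 4.61 to 6.64 in GPx4+/- CNTL, and 5.56 to 10.2 in WT HFHS against 3.70 to 8.03 in GPx4+/- HFHS. The highest value of 15.5 was that of WT CNTL replicate 3, a mouse high in atrial markers. Hcn4 followed with a log2 difference of -0.31 and Kcnd2 with 0.30, neither of them called. Without GPx4+/- CNTL replicate 3 the Kcnd2 difference was 0.18.

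Whether the diet effect differed between genotypes was tested as an interaction, and 0 of the 39 genes passed in limma (0 of all genes passed). An unadjusted p under 0.05 was found for 2 channel genes (5.13%), beside 7.14% of all genes. For Scn4b the difference in log2 fold change was 0.24 (95% interval -0.17 to 0.64). For Hcn4 it was 0.65 (standard error 0.267, limma adjusted p = 0.681) and 0.38 without the 5 mice high in atrial markers, so its call in GPx4+/- was not shown to be particular to that genotype. Kcnk3 had the smallest p, with a difference of 0.28 (standard error 0.088, limma adjusted p = 0.664). The 5 WT CNTL mice had 98.2, 98.7, 98.5, 109 and 112 scaled TPM, above all 5 GPx4+/- CNTL mice, which lay between 82.7 and 96.4. On HFHS the genotypes overlapped, with 87.5 to 100 in WT and 89.8 to 112 in GPx4+/-.

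The third comparison was of carnosine in WT mice on HFHS. In limma 0 of the 39 channel genes passed, as did 0 of all genes, and 1 channel gene had an unadjusted p under 0.05 (2.56%, beside 4.21% of all genes). That gene was Kcne4, an auxiliary subunit that inhibits Kv channels, with 1.36 to 2.69 scaled TPM without and 1.01 to 1.89 with carnosine (log2 difference -0.37, standard error 0.160, limma adjusted p = 0.947). Cacng7 (-0.21, or -0.29 to -0.14 with 1 mouse left out) and Hcn2 (0.15, or 0.11 to 0.23) came next. Scn4b mice with carnosine had 36.5, 39.6, 38.1, 39.4 and 40.0 scaled TPM, within the range of WT HFHS, and the log2 difference was 0.01 (95% interval -0.28 to 0.30). Kcnip2 mice had 56.1, 57.9, 50.0, 71.6 and 41.1, with a log2 difference of 0.15 (95% interval -0.18 to 0.48). Hcn4 had 3.29 to 5.83 with a log2 difference of 0.09. With carnosine Scn4b stayed above every WT CNTL mouse, whose highest value was 26.3.

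**Figure D4:**
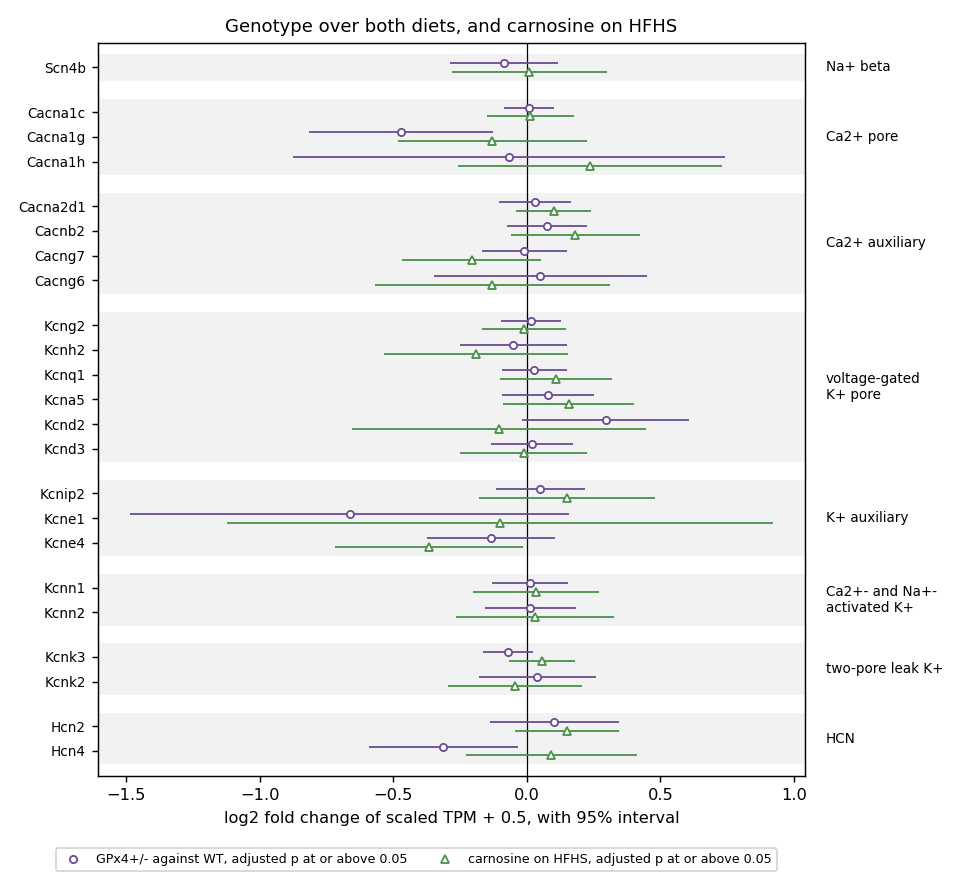
Log2 differences of GPx4+/- against WT over both diets (circles) and of carnosine against none in WT HFHS (triangles), with 95% intervals, for the same 23 channel genes. All symbols are open because no gene had an adjusted p under 0.05, and Cacna1g (-0.47) and Kcne4 (-0.37) have the smallest p of each comparison.

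In the 5 mice high in atrial markers, Cacna1h lay above all other mice in 4, and Cacna2d2 and Kcnip3 in 3, given as values with no test. Cacna1h, a T-type pore, had 13.0 scaled TPM in WT CNTL replicate 3, 11.2 in GPx4+/- CNTL replicate 1, 10.7 in GPx4+/- HFHS replicate 4 and 5.55 in WT HFHS + Carnosine replicate 2. The other 20 mice had 1.30 to 4.63. GPx4+/- CNTL replicate 2, whose atrial marker sum was 1564, had 1.58. Cacna2d2, an alpha2delta subunit named after its values were seen, had 7.75, 9.57, 4.94 and 1.55 in the same 4 mice and 0.835 in GPx4+/- CNTL replicate 2, against 0.407 to 2.19 in the other 20. Kcnip3, which encodes a KChIP protein and was also named after its values were seen, had 2.36, 2.24 and 2.20 in the first 3 of these mice, against 0.950 to 2.13 in the other 20. Cacna2d2 reached the limit for testing only through the mice high in atrial markers. Its mean over all mice was 1.73, and its mean in the other 20 alone was below the limit. Scn4b had 23.6, 19.0 and 23.7 in the 3 CNTL mice among the 5 and 31.2 and 39.6 in the 2 HFHS mice.

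**Figure D5:**
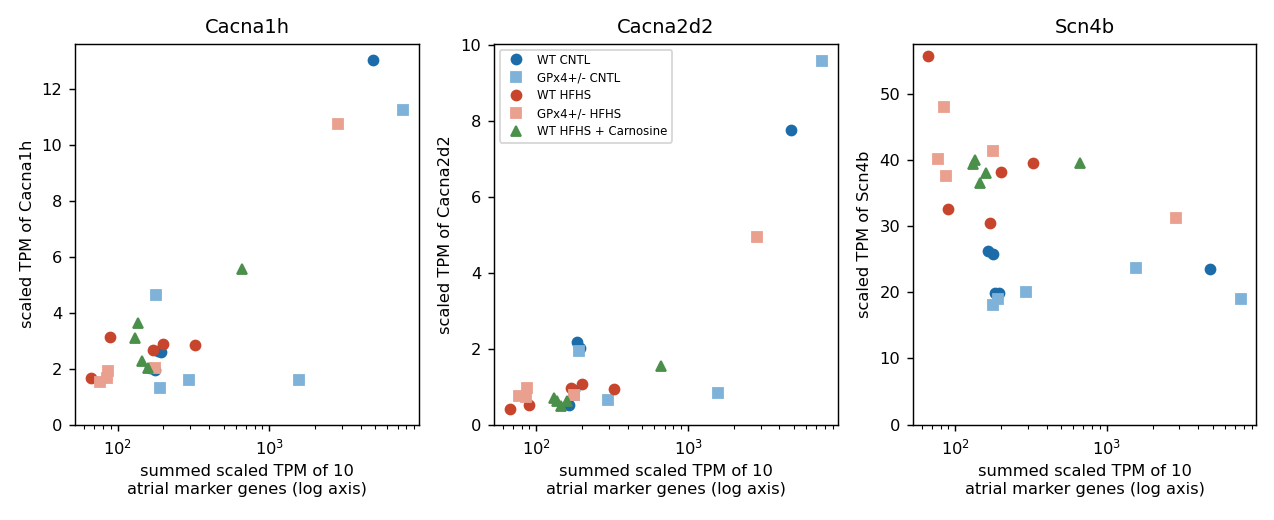
Scaled TPM of Cacna1h, Cacna2d2 and Scn4b in each mouse against the summed scaled TPM of 10 atrial marker genes (log axis), with groups by colour and symbol. Mice with sums of 2840, 4790 and 7627 have the highest Cacna1h (10.7, 13.0 and 11.2) and Cacna2d2, while Scn4b separates by diet. Cacna2d2 reached the limit for testing only through mice high in atrial markers.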

How the data were processed

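Myocardial poly(A) RNA of 25 mice was analysed. The authors deposited TPM per transcript and library. The submitters' processing notes name kallisto 0.43.1, sleuth 0.30.0 and GRCm38 without roles, whereas the methods describe STAR and DESeq2 on gene counts, so limma took the place of that test because TPM are not counts. Columns were matched to mice by library name, not by the positions given in the sample descriptions, which differ from those names, and Gpx4 levels fit the genotype labels. Of 119215 transcripts, 116772 matched GENCODE M21. TPM were summed per gene, divided by median-ratio factors (0.864 to 1.16, from 11879 genes) and tested as log2(value + 0.5) with limma 3.58.1 in R 4.3.3 (mean-variance trend) for 11984 genes with a mean of at least 1. The 20 mice without carnosine were fitted as 4 groups, and carnosine on 10 WT HFHS mice. Replicates are separate mice by their labels, with no batch given.

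Members, gene lists and alternatives were chosen with earlier results of these data known. Genes were named if called in any comparison, on a list of 23 known cardiac channels, of the 3 smallest p where none was called, among the 5 highest, highest in their role, or next to the filter. Results were recomputed with unscaled TPM, quantile normalization, a smaller pseudocount (0.1), a higher limit on mean level (5) or none, a replicate block, array weights, other sets of mice and each mouse left out. Code was tested on simulated data. Carnosine in GPx4+/- mice was not analysed here, and some genes that counts include are not reported here by name.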

Additional observations from a re-analysis of the deposited data

Results flagged for a closer look

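Among 135 groups of 5 mice (27 named genes in 5 groups each), 9 held a mouse whose gap to the nearest other mouse was over 0.71 of the group's range. Chance flags about 1 in 20, or 7 groups. Of the 9, 7 were in mice high in atrial markers.

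Cacna1h stood apart in WT CNTL replicate 3 (13.0 scaled TPM against at most 2.61, gap 0.941 of the range) and GPx4+/- HFHS replicate 4 (10.7 against at most 2.04, gap 0.943). Cacna2d3, below the limit for testing, did so in WT CNTL replicate 3 (2.42 against at most 0.733, gap 0.765), GPx4+/- CNTL replicate 1 (3.14 against at most 1.02, gap 0.784) and GPx4+/- HFHS replicate 4 (1.79 against at most 0.843, gap 0.729). Cacng7 had 1.47 in WT CNTL replicate 3 against at most 1.14 (gap 0.84), and Cacna2d1 had 49.3 in WT HFHS + Carnosine replicate 2 against at most 42.3 (gap 0.767).

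In mice not high in atrial markers, Kcne1 had 17.2 in WT HFHS replicate 4 against at most 4.79 (gap 0.824) and Cacna1c 70.3 in WT HFHS + Carnosine replicate 4 against at most 57.7 (gap 0.746).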

How the results depend on the processing

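No log2 fold change of a called channel gene, or of the 3 smallest p where none was called, reversed in any setting. The counts that follow are given without the share of all genes called in the same fit. A higher count can therefore not be read as a larger response of channel genes. Over both genotypes the count of channel genes called was 7 with array weights (Cacna2d1, Hcn4, Kcna7, Kcng2 and Kcnk2 beside Scn4b and Kcnip2) and 4 with all 25 mice in the fit, and 2 to 4 with 1 mouse left out. In WT it was 0 with no filter on low values and 0 with only the groups compared, and 0 to 2 with 1 mouse left out (0 without WT CNTL replicate 2, 1 without WT CNTL replicate 4). In GPx4+/- it was 2 to 3 over all settings. For genotype, interaction and carnosine it was 0 in each setting. With the replicate number as a block it was 3 over both genotypes, 2 in WT and 2 in GPx4+/-, where Hcn4 lost its call (adjusted p = 0.061). Of 50 same-numbered pairs of mice 9 had a correlation of deviations over 0.1, and all 50 ran from -0.34 to 0.23. Differently numbered pairs were not compared, so whether the numbers pair the mice cannot be told from these values. Without a filter Kcna4, at 0.199 scaled TPM, was called over both genotypes. The log2 fold change over both genotypes was 0.80 to 0.93 for Scn4b and -0.65 to -0.60 for Kcnip2 over 9 settings (limma adjusted p at most 0.000288 and 0.000938). TPM carry no depth, so precision at low levels is unknown.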
